A study of Mus musculus with 2 samples.

Results

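AP-1 and other immediate early genes were followed across the cells of mouse knee synovium, the soft tissue that lines the joint. The 10 genes were taken by symbol from the 32285 gene rows of the files: Fos, Fosb, Fosl1, Fosl2, Jun, Junb, Jund, Atf3, Egr1 and Ier2. All 10 had UMIs (unique molecular identifiers, 1 per captured transcript) in both libraries. There was 1 library from wild-type mice labelled MMS D14 and 1 from wild-type control mice, and the labels do not spell out MMS or give a day for the controls. Each library pooled 20 knees, so animals could not be told apart. The protocols in the labels describe tissue that was cut up, digested for 20 min at 37 °C with Liberase TL and DNase under syringe homogenization, passed through strainers and run on the 10x Genomics Chromium. With 1 library per group there is no replicate spread and no test between groups. Each difference is between these libraries, and each interval is an exact 95% interval for counting error only.

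AP-1 is a dimer of basic leucine zipper proteins of the Fos, Jun and ATF families that binds DNA and drives transcription. Most of its genes are silent or low in resting cells and are transcribed within minutes of growth factors, cytokines, mechanical stress or injury, without new protein synthesis, through serum response factor, its ETS partners and CREB. In joints AP-1 is best known for switching on matrix metalloproteinases and inflammatory mediators in synovial fibroblasts and macrophages. The same genes are also known to be induced while tissue is digested to single cells, so a level in dissociated cells can hold what the cells did in the joint and what they did during preparation.

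The promoters of 4 of the genes are shown. Their products (Fos, FosB, c-Jun and ATF3) bind as AP-1 or ATF dimers, and all 4 transcripts stood lower in fibroblast-like cells of the MMS library. The same holds for Junb, Jund and Fosl2, whose promoters are not shown. Each line gives the 250 bases before the RefSeq transcription start, 5′ to 3′ on the gene's strand, with matches to the motifs searched in capitals.
Fos, chr12:85473640-85473889 (GRCm38.p6, plus strand): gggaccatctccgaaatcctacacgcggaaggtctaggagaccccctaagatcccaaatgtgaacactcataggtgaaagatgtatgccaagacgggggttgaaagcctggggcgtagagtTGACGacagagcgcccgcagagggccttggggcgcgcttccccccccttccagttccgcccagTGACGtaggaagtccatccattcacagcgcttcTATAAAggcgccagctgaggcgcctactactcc
Fosb, chr7:19310046-19310295 (GRCm38.p6, minus strand): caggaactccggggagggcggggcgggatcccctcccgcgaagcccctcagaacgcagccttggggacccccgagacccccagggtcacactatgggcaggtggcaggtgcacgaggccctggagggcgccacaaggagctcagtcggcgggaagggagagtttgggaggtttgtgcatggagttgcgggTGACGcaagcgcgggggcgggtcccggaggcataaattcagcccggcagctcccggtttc
Jun, chr4:95052223-95052472 (GRCm38.p6, minus strand): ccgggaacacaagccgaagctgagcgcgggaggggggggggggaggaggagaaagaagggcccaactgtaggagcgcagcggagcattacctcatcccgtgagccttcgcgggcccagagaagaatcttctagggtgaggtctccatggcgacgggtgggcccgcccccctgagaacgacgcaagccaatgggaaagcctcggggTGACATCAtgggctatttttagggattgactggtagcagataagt
Atf3, chr1:191183334-191183583 (GRCm38.p6, minus strand): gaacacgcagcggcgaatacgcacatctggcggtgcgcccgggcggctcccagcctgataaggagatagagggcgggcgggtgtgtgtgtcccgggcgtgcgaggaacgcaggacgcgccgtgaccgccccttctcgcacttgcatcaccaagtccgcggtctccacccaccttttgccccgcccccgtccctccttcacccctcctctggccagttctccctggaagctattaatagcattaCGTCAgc

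Both strands were searched for the cAMP response element TGACGTCA, its core TGACG, the AP-1 site TGANTCA, the variant TGACATCA, the TATA box TATAAA and the CArG box of serum response factor. The core and the variant were added after the full elements had given no match in these windows. The core lay at -129 to -125 and at -66 to -62 of Fos, at -60 to -56 of Fosb and, on the other strand, at -7 to -3 of Atf3. TGACATCA lay at -45 to -38 of Jun and TATAAA at -33 to -28 of Fos, counted back from -1 at the base before the start. Of 32851 RefSeq promoter windows of the same length, 17.8% held TGACG (which includes those with the full element), 2.93% TGACATCA, 12.4% TATAAA, 6.75% TGANTCA, 1.55% TGACGTCA and 1.47% a CArG box. A match is a description of letters, not a shown binding site. Bases outside these windows were not searched, so no match does not mean that a gene lacks the element. The Atf3 window lies inside the gene as annotated in GENCODE (chromosome 1, 191170296 to 191218039), so its start is not the outermost one. Of the other entries Junb held the core at -106 to -102, and Fosl2 and Jund held no match. The Fosl2 window (chromosome 5, 32136222 to 32136471) lies inside the gene as annotated in GENCODE, which starts at 32135801. The Jund window (chromosome 8, 70697489 to 70697738) ends well before the GENCODE start of the gene at 70698949. No match in these windows thus says nothing about the bases next to those GENCODE starts. Among the genes, 7 had an entry; Fosl1, Egr1 and Ier2 had none.

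The libraries held 85597195 UMIs over 5286 barcodes in MMS and 84900876 UMIs over 8810 barcodes in control, and 6 barcode sequences occurred in both. Filters left 3765 cells in MMS, at a median depth of 17444 UMIs, and 6891 in control, at 10990 UMIs. The labels name goblet cells, but 0 of 3765 MMS cells and 0 of 6891 control cells had UMIs of 2 or more of 8 goblet markers (limits of 3 counts in the total, 0.0797% and 0.0435%). Clusters were named from markers instead, and 4 classes had at least 50 cells of each library. They were fibroblast-like (1507 MMS and 3220 control cells), macrophage or monocyte-like (553 and 1203), endothelial-like (702 and 1949) and mural-like cells (184 and 150), the last named for markers of pericytes and vascular smooth muscle. All markers of its own list were detected in each of these classes in both libraries. Levels are UMIs per 1000000 UMIs of the class in that library (CPM). They are not divided by transcript length, so levels of different genes are not compared. None of the 10 genes overlaps another on its own strand in GENCODE M21 (GRCm38). On the opposite strand Jun overlaps Junos, Junb overlaps Prdx2, Fosl1 overlaps Ccdc85b, Atf3 overlaps Gm24748 and Jund overlaps Gm11175, and the strand setting of the counting is not given in the sources used here.

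In fibroblast-like cells, 9 of the 10 genes were lower in MMS, and 8 were at least 2-fold lower. Of 16326 genes with at least 10 UMIs there, 41.7% were lower, 8.91% at least 2-fold lower and 12.3% at least 2-fold higher. None of the 10 was 2-fold higher. The median log2 ratio, MMS over control, was -1.27 for the 10 genes and 0.09 for all genes tested. Summed, the 10 genes made up 6307 CPM in MMS and 16781 CPM in control.

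Among the Fos family, which cannot pair with itself and dimerizes with Jun proteins, Fos stood at 1391 CPM in MMS and 4143 CPM in control, a log2 ratio of -1.58 (-1.59 to -1.56). Fosb stood at 681 CPM in MMS and 1683 CPM in control, a log2 ratio of -1.31 (-1.33 to -1.29). Fosl2, which encodes Fra-2, a Fos protein known for a slower and longer response, stood at 71.0 CPM in MMS and 88.0 CPM in control, a log2 ratio of -0.31. Fosl1, which encodes Fra-1, was rare, with 192 UMIs in MMS and 158 in control, and it was the only one of the 10 above 0, at 0.46 (0.14 to 0.77). Fos and Fosb thus differed by more than 2-fold and the Fra genes by less.

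Among the Jun family, whose proteins pair with Fos proteins and with each other, Jun stood at 695 CPM in MMS and 2461 CPM in control, a log2 ratio of -1.82 (-1.84 to -1.81). Junb, whose product can oppose c-Jun on some promoters, stood at 963 CPM in MMS and 2230 CPM in control, at -1.21. Jund, known as the member with steady expression in resting cells, stood at 1096 CPM in MMS and 2219 CPM in control, at -1.02, just past the 2-fold line. All 3 Jun genes were lower in MMS.

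Atf3, a stress-induced member of the ATF family, had the lowest ratio of the 10, with 135 CPM in MMS and 716 CPM in control, a log2 ratio of -2.41 (-2.45 to -2.37). Egr1, a zinc-finger factor induced by serum response factor, stood at 858 CPM in MMS and 2264 CPM in control, at -1.40. Ier2, a small nuclear protein of the immediate early response, stood at 414 CPM in MMS and 973 CPM in control, at -1.23. Neither Egr1 nor Ier2 is a leucine zipper protein, and their ratios lay among those of the Fos and Jun genes.

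**Figure D1:**
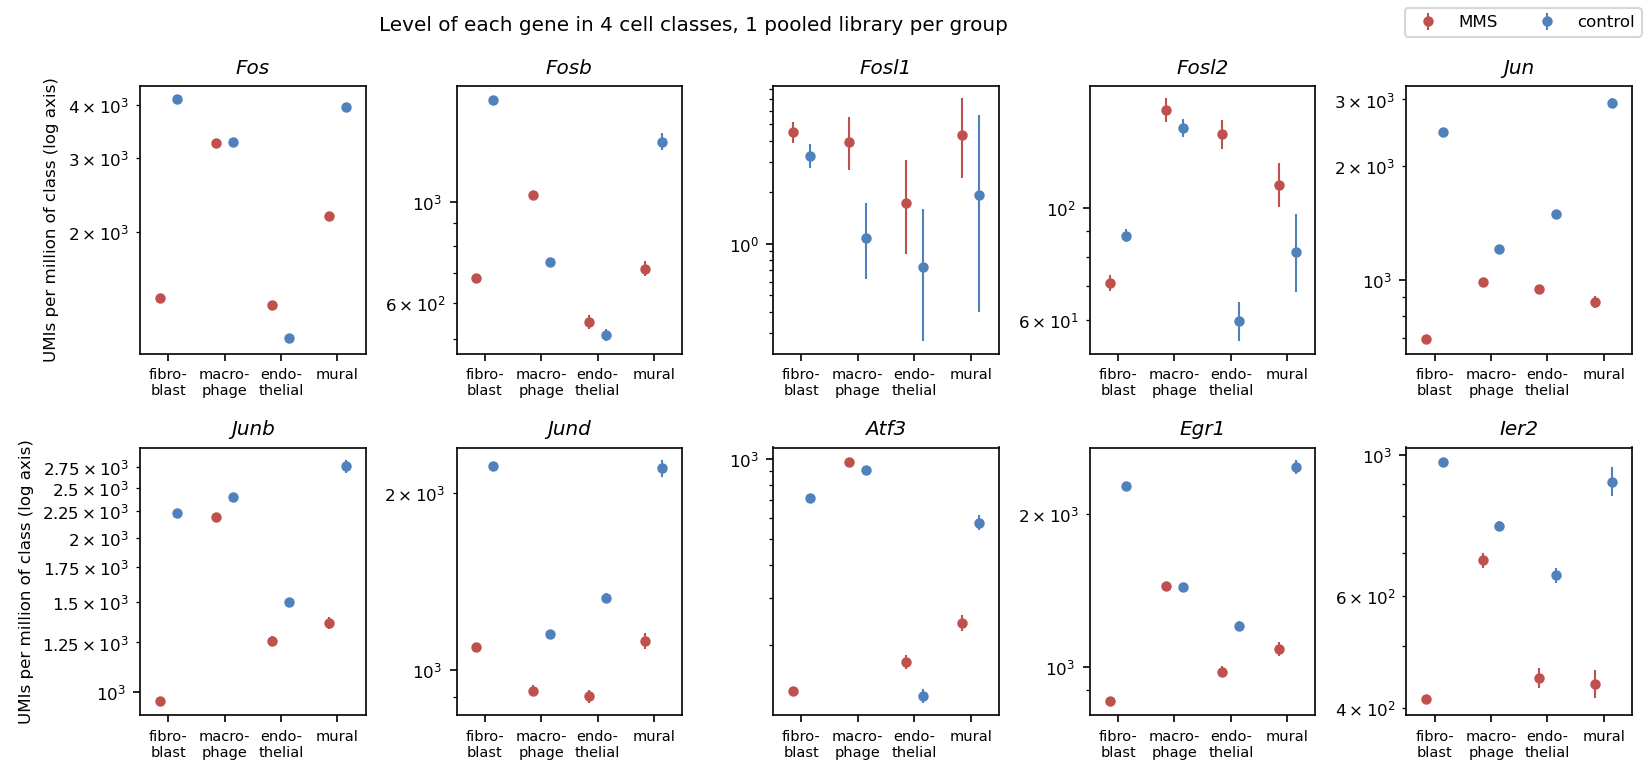
Level of each gene (CPM, log axis, a separate range per panel) in 4 cell classes of the MMS (red, left) and control (blue, right) libraries; bars are exact 95% counting intervals. In fibroblast-like cells the MMS point lies below the control point for every gene but Fosl1, while in macrophage or monocyte-like cells Fos stands at 3250 CPM in MMS and 3270 CPM in control.

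Depth differed with the group in this class. MMS fibroblast-like cells had a median of 27363 UMIs and control ones 13809.5 UMIs, and the level of the genes varied with depth within each library. In MMS cells the summed level was 10705 CPM at 11585 to 16384 UMIs per cell and 4927 CPM at 32768 to 46341 UMIs. In control cells of those bins it was 20713 and 8470 CPM. Cells were therefore compared in 8 bins of depth that held at least 20 cells of each library. All 10 genes were then lower in MMS, but only Atf3 was 2-fold lower, at -1.58; 6.78% of all genes tested were 2-fold lower in that comparison. The median log2 ratio of the 10 genes was -0.76, against 0.10 for all genes. Jun lay at -0.99, Fos at -0.80, Jund at -0.78, Egr1 at -0.75, Junb at -0.68, Ier2 at -0.53, Fosb at -0.46 and Fosl2 at -0.15. Fosl1 turned to -0.76, on the other side of 0. The summed level was lower in MMS in each of the 8 bins, with log2 ratios from -1.41 to -0.42.

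**Figure D2:**
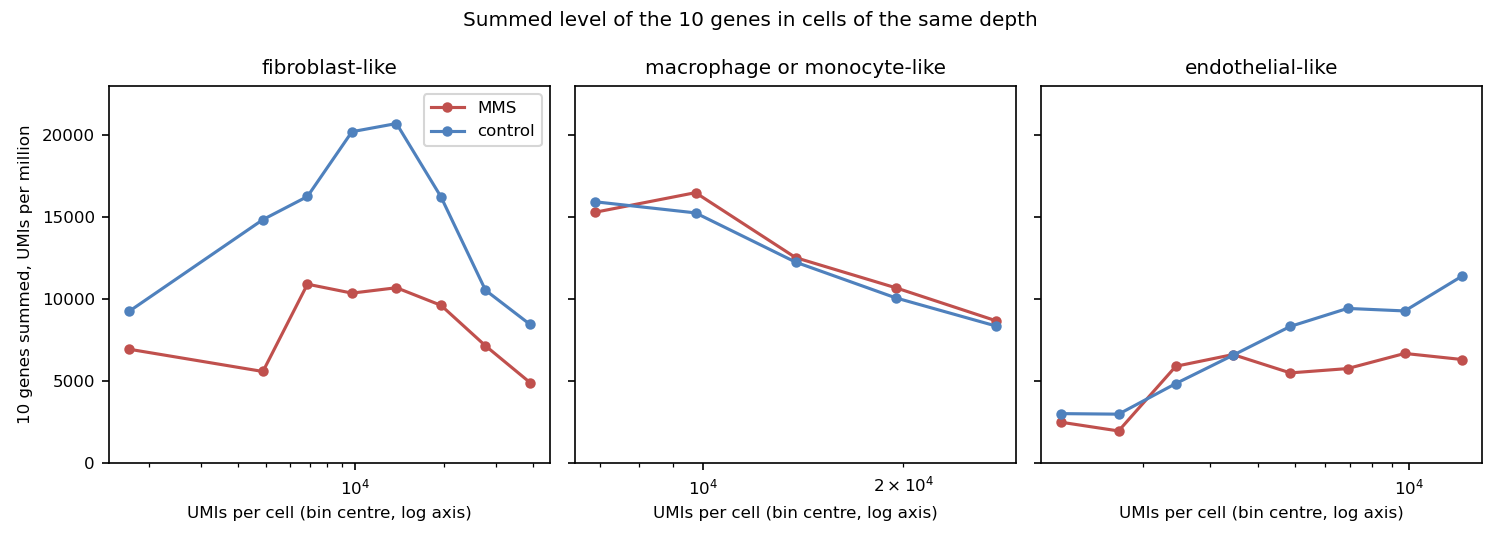
Summed level of the 10 genes (CPM) against UMIs per cell (bin centre, log axis) in 3 cell classes, for MMS (red) and control (blue). The MMS line lies below the control line in all 8 bins of fibroblast-like cells, and the lines nearly coincide in macrophage or monocyte-like cells.

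The fibroblast-like class of each library came largely from different clusters. MMS cells lay mostly in clusters 8, 2 and 0 (512, 406 and 359 cells) and control cells in clusters 27, 5, 29 and 6 (817, 617, 613 and 361 cells). The MMS cells of cluster 2, which held 20 control cells, had a summed level of 8624 CPM. The control cells of clusters 5, 6, 27, 28 and 29, which held at most 45 MMS cells each, had 17810, 29324, 19033, 19720 and 18438 CPM. Only 3 clusters had 50 cells of each library. In cluster 0 the sum was 6472 CPM in MMS and 8275 CPM in control, with a median log2 ratio of -0.33; 2 of the 10 genes (Atf3, with 131 CPM in MMS and 359 CPM in control, and the rare Fosl1) were 2-fold lower, against 3.87% of all genes. In cluster 8 it was 4759 CPM in MMS and 6945 CPM in control, with a median of -0.44; 1 gene (Jun, with 378 CPM in MMS and 823 CPM in control) was 2-fold lower, against 6.75% of all genes. In cluster 13 it was 10520 CPM in MMS and 18604 CPM in control, with a median of -0.97; 2 of 9 tested genes (Atf3, with 183 CPM in MMS and 882 CPM in control, and Junb, with 1235 and 2619 CPM) were 2-fold lower, against 8.7% of all genes. Within each of these clusters the sum was lower in MMS, and the difference was smaller than over the whole class. How much of the class difference comes from which cells were captured, and how much from levels within a kind of cell, cannot be told apart where clusters belong to 1 library.

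**Figure D3:**
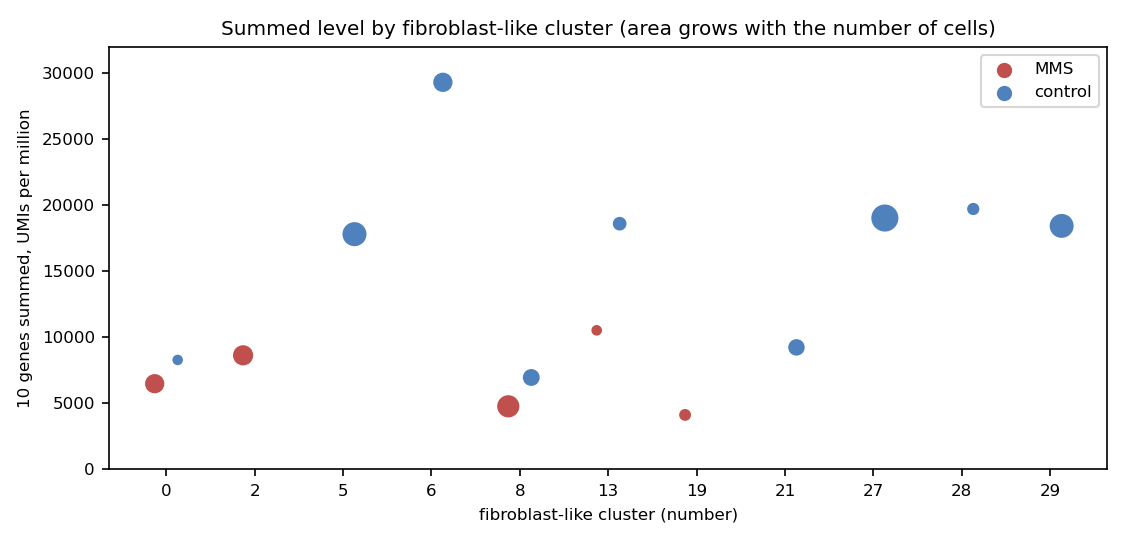
Summed level of the 10 genes (CPM) in each fibroblast-like cluster, shown for MMS (red) and control (blue) where that library had at least 50 cells; point area grows with the number of cells. MMS points lie between 4107 and 10520 CPM, while 6 of the 9 control points lie between 17810 and 29324 CPM and those of clusters 0, 8 and 21 between 6945 and 9226 CPM.

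Synovial fibroblasts form a thin surface layer that secretes lubricin, called the lining, and a looser sublining beneath it. In lining-like cells (598 in MMS and 243 in control) the sum was 5409 CPM in MMS and 6942 CPM in control. None of the 10 genes was 2-fold lower there, against 5.21% of all genes, and 7 were below 0, against 54.2% of all genes. Jun stood at 463 CPM in MMS and 810 CPM in control, at -0.81, Atf3 lay at -0.66 and Jund at -0.59. Fos stood at 1058 CPM in MMS and 1326 CPM in control, at -0.33, and Fosb at 497 and 491 CPM, at 0.02 with an interval that spans 0. The median of the 10 was -0.23, and it was 0.03 in the 3 bins of equal depth, where 5 of the 10 were lower. The libraries filled different lining-like sub-clusters. MMS cells lay in sub-clusters 4 and 3 (345 and 232 cells, with 21 in sub-cluster 14), and 185 of the 243 control cells lay in sub-cluster 14 (with 43 in sub-cluster 4 and 15 in sub-cluster 3).

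In sublining-like cells (170 in MMS and 754 in control) the sum was 7490 CPM in MMS and 16561 CPM in control. Here 7 of the 10 genes were 2-fold lower, against 8.42% of all genes, and all 10 were below 0, against 44.2% of all genes. The median of the 10 was -1.15. Atf3 stood at 221 CPM in MMS and 772 CPM in control, and Jun at 929 CPM in MMS and 2499 CPM in control. Most of these MMS cells (152 of 170) came from a sub-cluster with 15 control cells, led by Sfrp4, while 578 of the 754 control cells came from a sub-cluster with 14 MMS cells, led by Pi16. The Sfrp4-led sub-cluster scored 1.04 for sublining markers, just past the naming cut of 1. A sub-cluster of 442 control and 16 MMS cells scored 0.97 and stayed unnamed. Under other settings, mainly MMS sub-clusters that also had Barx2 and Mmp3 among their leading genes stayed unnamed. Their scores were 0.68 (at least 2000 UMIs), 0.78 (at most 20% mitochondrial UMIs) and 0.87 (resolution 0.5). The MMS sublining-like group thus rests on a borderline name. Depth differed too, with a median of 25928.5 UMIs in MMS and 12211 UMIs in control. Only 1 bin of equal depth could be formed, of 28 MMS and 86 control cells. There the sum was 7512 CPM in MMS and 14898 CPM in control, the median was -1.04, and 6 of 9 genes were 2-fold lower, against 14.8% of all genes. With these names, sublining-like and lining-like cells stood closer to each other in the MMS library (7490 and 5409 CPM) than in the control library (16561 and 6942 CPM).

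Summed over the macrophage or monocyte-like class, the genes stood at nearly the same level in both libraries. The sum was 11649 CPM in MMS and 12034 CPM in control, and the median log2 ratio was -0.00 for the 10 genes and 0.02 for all genes tested. No gene was 2-fold lower, against 5.14% of all genes, and 1 was 2-fold higher, against 4.85%. Fos stood at 3250 CPM in MMS and 3270 CPM in control, at -0.01 (-0.03 to 0.01), and Egr1 at 1443 and 1437 CPM, at 0.01 (-0.03 to 0.04). For both, the counting interval spans 0. Atf3 stood at 972 CPM in MMS and 910 CPM in control, at 0.09. Fosb was higher in MMS, with 1038 CPM against 738 CPM in control, at 0.49 (0.45 to 0.53). Jun stood at 986 CPM in MMS and 1209 CPM in control, at -0.29, and Jund at 922 and 1149 CPM, at -0.32. The gene past 2-fold was Fosl1, at 1.87 (0.99 to 2.81), from 33 UMIs in MMS and 17 in control.

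The depth of macrophage or monocyte-like cells differed little, with a median of 14587 UMIs in MMS and 12658 UMIs in control. In 5 bins of equal depth the median was 0.09 and none of the 10 was 2-fold lower, against 5.26% of all genes. Within clusters 3, 4 and 12 the median log2 ratios were 0.08, -0.15 and 0.20. The mitochondrial share moved with the result: its median was 6.25% in MMS cells of this class and 4.84% in control cells. Among cells with at most 2.5% mitochondrial UMIs, the sum was 8297 CPM in 20 MMS cells and 13158 CPM in 89 control cells. At 5 to 10% it was 12166 CPM in 387 MMS cells and 11126 CPM in 570 control cells. At 2.5 to 5% it was 10606 CPM in 146 MMS cells and 12807 CPM in 544 control cells. With cells limited to 5% from the start the median was -0.42, with Jun at -0.94, Egr1 at -0.83, Ier2 at -0.73 and Junb at -0.71. The part of the mitochondrial share in this result was not tested.

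In endothelial-like cells, 5 genes were lower and 5 higher in MMS, and 45.6% of all genes were lower. The median of the 10 was -0.08, against 0.04 for all genes. None of the 10 was 2-fold lower, against 4.75% of all genes, and Fosl1 and Fosl2 were 2-fold higher, against 8.77%. At 1.5-fold 1 gene, Jun, was lower, against 10.5% of all genes. Fosl2 stood at 140 CPM in MMS and 59.6 CPM in control, at 1.23 (1.07 to 1.39). Fosl1 rested on 11 UMIs in MMS and 6 in control, and its interval spans 0. Jun stood at 946 CPM in MMS and 1493 CPM in control, at -0.66, Jund lay at -0.56 and Ier2 at -0.54. Fos stood at 1334 CPM in MMS and 1117 CPM in control, at 0.26, and Atf3 at 173 and 129 CPM, at 0.42. MMS cells were deeper here too, with a median of 6934.5 UMIs against 3435 UMIs in control, and the summed level differed with depth: control cells had 3033 CPM in the shallowest bin and 11409 CPM in the deepest. In 8 bins of equal depth 8 of the 10 genes were lower, the median was -0.46 and none was 2-fold lower, against 5.1% of all genes. Fos then lay at -0.13 and Atf3 at -0.57, on the other side of 0, while Fosl2 was higher at 0.86. The libraries also filled the endothelial-like clusters unequally, with MMS cells mostly in clusters 11, 15 and 1 (194, 171 and 163 cells) and control cells in clusters 15 and 14 (980 and 418 cells). Within the 4 clusters that had 50 cells of each library the sum was lower in MMS each time. It was 7113 CPM in MMS and 10515 CPM in control in cluster 1, 7823 and 12409 CPM in cluster 11, 5628 and 6703 CPM in cluster 14, and 5171 and 7754 CPM in cluster 15. The median log2 ratios there were -0.48, -0.72, -0.17 and -0.48.

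In mural-like cells 8 of the 10 genes were lower in MMS, against 51.9% of all genes, and 5 were 2-fold lower, against 5.77%. Fosl1 alone was 2-fold higher, against 9.04%, from 15 UMIs in MMS and 3 in control. The sum was 8129 CPM in MMS and 17255 CPM in control, and the median was -0.99. At 1.5-fold 8 genes were lower, against 14.4% of all genes. Jun stood at 875 CPM in MMS and 2938 CPM in control, at -1.75 (-1.81 to -1.68), and Atf3 at 243 and 576 CPM, at -1.24. Egr1 lay at -1.19, Ier2 at -1.05, Junb at -1.01, Fosb at -0.93 and Fos at -0.86. Fibroblast transcripts moved with this result. The summed fibroblast markers (8 of 8 detected in each library) stood at 8771 CPM in MMS and 4008 CPM in control, the summed lining markers (8 of 8) at 24566 and 1551 CPM. Only 2 bins of equal depth could be formed, and there the median was -0.35, with 1 of 9 genes (Jun, -1.24; Fosl1 had no value) 2-fold lower, against 11.9% of all genes. Atf3 lay at 0.28 in those bins. The part of fibroblast RNA or of depth in the mural-like result was not tested.

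**Figure D4:**
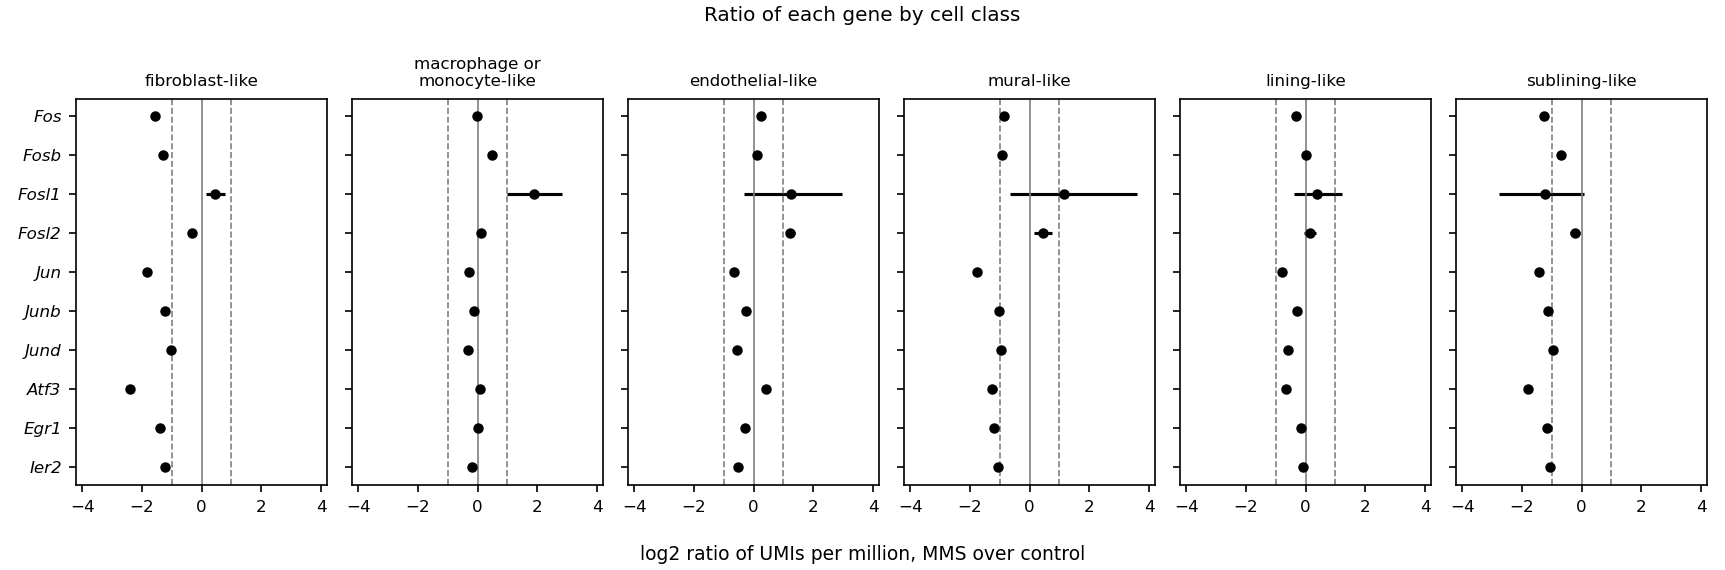
Log2 ratio of each gene, MMS over control, in 6 cell classes or subclasses, with exact 95% counting intervals; the solid line marks 0 and the dashed lines 2-fold. In fibroblast-like cells 8 genes lie left of the lower dashed line, in mural-like cells 5, in sublining-like cells 7, and in macrophage or monocyte-like, endothelial-like and lining-like cells none.

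The order of the classes differed between the libraries. In MMS, where 5 classes had 50 cells, the summed level was highest in macrophage or monocyte-like cells (11649 CPM), then in mural-like (8129), endothelial-like (6726), fibroblast-like (6307) and neutrophil-like cells (5528). In control, where 6 classes had 50 cells, it was highest in mural-like cells (17255 CPM), then in fibroblast-like (16781), dendritic-like (13252), macrophage or monocyte-like (12034), T or NK-like (10372) and endothelial-like cells (7987). No neighbours in either order had overlapping counting intervals. For Fos, macrophage or monocyte-like cells led in MMS and fibroblast-like cells in control. For Jund, mural-like and fibroblast-like cells led in both, and their intervals overlapped in each library. Neutrophil-like cells of MMS (309 cells; 20 in control) held Fosl1 at 123 CPM and Fosl2 at 245 CPM, the highest level of each among the 5 MMS classes with 50 cells. Among those 5 they had the lowest Jun, at 236 CPM, and the lowest Egr1, at 333 CPM. Smaller classes lay beyond some of these values: the 27 T or NK-like cells of MMS held Fosl2 at 397 CPM. B or plasma-like cells held Jund at 2052 CPM in MMS (20 cells) and 2690 CPM in control (13 cells). Schwann or glial-like cells summed to 22438 CPM in MMS (31 cells) and 20696.5 CPM in control (9 cells). Median depth in MMS ran from 6934.5 UMIs in endothelial-like to 27363 UMIs in fibroblast-like cells among the ordered classes, and no order at equal depth is given.

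Cell by cell, after every cell was thinned to 2000 UMIs, UMIs of at least 5 of the 10 genes were found in 54.8% (52.2 to 57.4) of MMS and 87.8% (86.6 to 88.9) of control fibroblast-like cells. Cells under 2000 UMIs were left out, 62 of MMS and 36 of control. Among lining-like cells of this class the shares were 51.3% (47.2 to 55.4) in MMS and 57.4% (50.9 to 63.7) in control, with overlapping intervals. Among sublining-like cells they were 60.6% (52.8 to 68.0) in MMS and 89.5% (87.0 to 91.6) in control. For macrophage or monocyte-like cells the shares were 81.5% (77.9 to 84.7) in MMS and 83.1% (80.9 to 85.2) in control. For endothelial-like cells they were 43.9% (40.0 to 47.8) in MMS and 46.3% (43.8 to 48.9) in control, and for mural-like cells 63.1% (55.6 to 70.2) in MMS and 81.1% (73.7 to 87.2) in control. The intervals of the libraries overlap in macrophage or monocyte-like and endothelial-like cells. Thinned to 5000 UMIs, which leaves out more of the shallow cells, the endothelial-like shares were 69.3% (64.9 to 73.4) in MMS and 79.8% (76.0 to 83.2) in control, and those intervals do not overlap. In fibroblast-like cells the median cell held 10 UMIs of the genes in MMS and 32 in control, and the interquartile range was 5 to 19 UMIs in MMS and 18 to 49 UMIs in control. The upper quartile of MMS cells thus lay next to the lower quartile of control cells.

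By gene, a Fos UMI was seen in 69.2% (66.8 to 71.6) of thinned MMS and 91.6% (90.6 to 92.6) of thinned control fibroblast-like cells, and in 90.8% and 96.9% without thinning. A Jun UMI was seen in 57.4% in MMS and 88.4% in control, and an Atf3 UMI in 17.99% in MMS and 51.5% in control. Fosl2 differed least among the genes seen in over 10% of cells, with 13.4% (11.7 to 15.3) in MMS and 15.5% (14.2 to 16.8) in control, and those intervals overlap. None of the classes is known to lack these genes. In barcodes under 1000 UMIs, which were left out as cells, the 10 genes summed to 3776 CPM in MMS and 2887 CPM in control. In B or plasma-like cells Egr1 stood at 49.3 CPM (16.0 to 115.1) in 20 MMS cells and 80.9 CPM (22.05 to 207.2) in 13 control cells, with median depths of 4517 and 3491 UMIs.

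**Figure D5:**
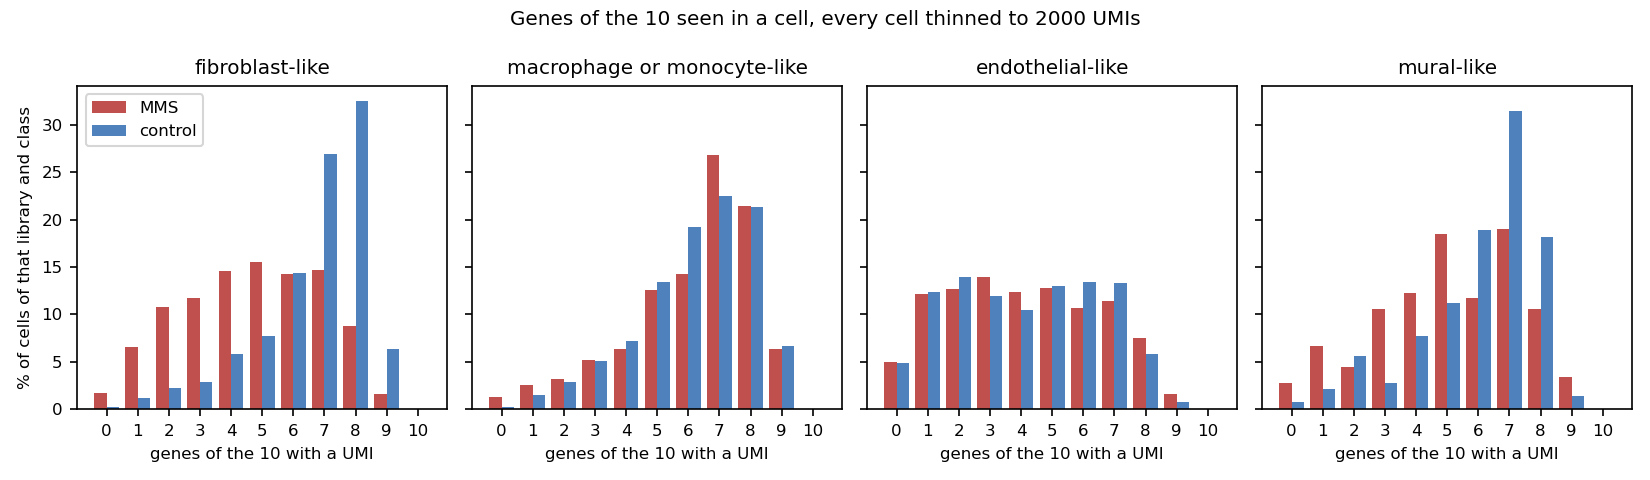
Share of cells (%) of each class and library by the number of the 10 genes with a UMI, after thinning every cell to 2000 UMIs, for MMS (red, left bars) and control (blue, right bars). In fibroblast-like cells MMS peaks at 5 genes and control at 8, and in macrophage or monocyte-like cells both libraries peak at 7.

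Within fibroblast-like cells 8 of the 10 genes varied together from cell to cell in both libraries. Over 1390 MMS and 3050 control cells thinned to 5000 UMIs, the correlation across cells of Fos with Fosb was 0.74 in MMS and 0.71 in control, the highest of the pairs in each. The lowest pair among the 8 was Junb with Jund in MMS, at 0.28, and Jund with Ier2 in control, at 0.33. Fosl1 and Fosl2 stood apart. Correlations of Fosl1 with the other genes ran from -0.06 to -0.01 in MMS and from -0.06 to 0.03 in control, with a Fosl1 UMI in 1.73% of MMS and 1.15% of control cells. Those of Fosl2 ran from -0.03 to 0.10 in MMS and from 0.02 to 0.12 in control. The cells were pooled over clusters whose summed levels differ, in control from 6945 CPM in cluster 8 to 29324 CPM in cluster 6. No correlation within a cluster is given. Cells of 1 library also share their preparation, so these values are a description. Among the genes outside the set whose levels followed the summed 10 most closely in both libraries, of 5127 eligible, were Zfp36, Btg2, Klf4, Cxcl1, Dusp1, Nfkbiz, Gsn, C3 and Zfp36l1. Zfp36, which encodes the mRNA-decay factor tristetraprolin, had correlations of 0.70 in MMS and 0.70 in control, and Btg2 0.60 and 0.61.

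Other genes of the pathway were read from fixed lists. Of 51 other immediate early genes, in fibroblast-like cells 42 stood lower in MMS, 17 of them 2-fold, and 5 were 2-fold higher. Their median was -0.72. Of all genes of the class 41.7% were lower, 8.91% 2-fold lower and 12.3% 2-fold higher. The count of 2-fold higher genes is thus near that background. The lowest were Cebpd (-1.90), Myc (-1.87), Klf4 (-1.81) and Tiparp (-1.65), and the highest Dusp2 (3.23), Gadd45a (2.62), Ccn2 (1.16) and Dusp5 (0.62). In macrophage or monocyte-like cells 19 of 49 tested were lower, against 48.1% of all genes, with a median of 0.17. None was 2-fold lower, against 5.14% of all genes, and 3 were 2-fold higher, against 4.85%. In endothelial-like cells 18 of 49 were lower, against 45.6% of all genes, with a median of 0.22. There 2 were 2-fold lower, against 4.75% of all genes, and 9 were 2-fold higher, against 8.77%. In mural-like cells 40 of 49 were lower, against 51.9% of all genes, with a median of -0.36, and 6 were 2-fold lower, against 5.77%. In lining-like cells 22 of 50 were lower, against 54.2% of all genes. Their median was 0.08, while the median of the 10 genes was -0.23. In sublining-like cells 34 of 48 were lower, against 44.2% of all genes, with a median of -0.69. The list thus stood lower over the fibroblast-like and mural-like classes, where the 10 genes were lower, but not in lining-like cells. It was read in the same cells, so it is not independent of them.

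AP-1 partners and other leucine zipper factors differed less. Of 25, in fibroblast-like cells 16 stood lower in MMS, against 41.7% of all genes, with a median of -0.08. Among the 25, 2 were 2-fold lower, against 8.91% of all genes, and 1 was 2-fold higher, against 12.3%. Neither count stood above that background. Maff (-1.36), Nfil3 (-0.79), Atf5 (-0.76) and Jdp2 (-0.74), a repressor of AP-1, were lowest, and Batf3 (0.64), Bach1 (0.50) and Crem (0.45) were among the highest. Of 21 upstream kinases and serum response factors none was 2-fold lower, against 8.91% of all genes, and 1 was 2-fold higher, against 12.3%. Their median was 0.16. Elk3 (1.61) and Elk4 (0.81), ETS partners of serum response factor, and Rps6ka1 (0.52) and Map2k7 (0.48) were highest, and Map3k5 (-0.39), Mapk14 (-0.39), Map3k1 (-0.10) and Mapk9 (-0.08) lowest. Transcripts of these kinases do not measure their activity.

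Known AP-1 target genes went in both directions in fibroblast-like cells. Of 20 tested, 10 were 2-fold higher in MMS, against 12.3% of all genes, and 6 were 2-fold lower, against 8.91%, with a median of 0.91. Mmp13, a collagenase, stood at 286 CPM in MMS and 7.23 CPM in control, at 5.31. Mmp9 lay at 4.29 from 52 UMIs in MMS and 3 in control, Spp1, which encodes osteopontin, at 4.11 and Timp1 at 2.22. Neutrophil markers in fibroblast-like cells stood at 68.0 CPM in MMS (9 of 9 detected) and 1.16 CPM in control (5 of 9 detected, with Retnlg, Ly6g, Mmp8 and Ngp at 0). The part of neutrophil RNA in the Mmp9 value was not tested. Ptgs2, which encodes the inducible cyclooxygenase, stood at 7.503 CPM in MMS and 92.5 CPM in control, at -3.62, and Lif lay at -2.28, Plau at -1.75 and Il6 at -1.75. The target list was 2-fold higher in more genes than it was 2-fold lower while Fos, Jun and Atf3 were lower. These ratios are over the whole fibroblast-like class, whose cells came largely from different clusters in each library. Mmp13 and Spp1 were leading genes of a sub-cluster of 338 MMS and 15 control cells. Ptgs2 was a leading gene of the Pi16-led sub-cluster of 578 control and 14 MMS cells. The part of which cells were captured in the target ratios was not tested. In macrophage or monocyte-like cells 11 of 19 targets were 2-fold higher, against 4.85% of all genes there. The targets had a median of 1.26, while the 10 genes summed over the class stood at nearly equal levels. Transcripts of other cells moved with this count. In that class the summed lining fibroblast markers (8 of 8 detected in each library) stood at 239 CPM in MMS and 63.7 CPM in control, and Prg4 at 212 CPM in MMS and 43.2 CPM in control. The neutrophil markers stood at 151 CPM in MMS (8 of 9 detected, Ly6g at 0) and 10.4 CPM in control (4 of 9 detected, with Retnlg, Ly6g, Mmp8, Camp and Ngp at 0). Their part in the target count was not tested.

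A list of 14 heat shock and dissociation response genes was read because tissue digestion is known to induce both groups. It was lower in MMS in all 4 classes. Summed, it stood at 4000 CPM in MMS and 6289 CPM in control in fibroblast-like cells (log2 ratio -0.65), at 4666 and 7912 CPM in macrophage or monocyte-like cells (-0.76), at 5101 and 9151 CPM in endothelial-like cells (-0.84), and at 4556 and 9290 CPM in mural-like cells (-1.03). The counts of lower genes were 13, 14, 11 and 14 of 14, of which 4, 5, 5 and 7 were 2-fold lower. Of all genes tested in those classes 41.7%, 48.1%, 45.6% and 51.9% were lower, and 8.91%, 5.14%, 4.75% and 5.77% were 2-fold lower. In fibroblast-like cells Hspa1a (-1.56), Hspa1b (-1.52), Hsph1 (-1.40) and Dnajb1 (-1.33) were lowest, and Hspe1 (0.26), Hspb1 (-0.28), Hspd1 (-0.31) and Hsp90ab1 (-0.34) highest. The heat shock list was thus also lower in the macrophage or monocyte-like cells, where the median of the 10 genes was -0.00. Both libraries were digested by the same protocol per the labels, and the part of dissociation in the levels of the 10 genes was not tested.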

How the data were processed

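Single-cell RNA of knee synovium was measured in 1 MMS and 1 control library. The authors deposited a matrix of raw UMI counts per gene and barcode for each. Cell Ranger is named as 5.0.0 per the file headers and as 2.0.0, with build mm10, per the submitters' processing notes; neither source gives its settings. All matrices could be assigned to a sample.

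Barcodes under 1000 UMIs, under 500 genes or over 10% mitochondrial UMIs were left out, and doublets called by Scrublet in scanpy 1.11.5 (expected rate 0.06) were removed, 106 of 3871 in MMS and 184 of 7075 in control. Counts scaled to 10000 per cell were clustered on 2000 variable genes and 30 components with 15 neighbours (Leiden, resolution 1). Clusters and fibroblast sub-clusters were named from marker lists; the naming thresholds were set after the clusters were seen, and a difference from the study's own cell types may come from this. UMIs were summed per library and class. Ratios have exact conditional binomial intervals, levels exact Poisson intervals and shares Clopper-Pearson intervals (95%); UMIs make these counts of molecules, but the intervals cover counting error only. Genes with at least 10 UMIs over both libraries in a class were compared. Equal-depth bins span 0.5 on the log2 scale of UMIs per cell and hold at least 20 cells of each library; bins were weighted by the smaller number of cells. For each list the 4 highest and 4 lowest genes with at least 50 UMIs in fibroblast-like cells are named, and the genes most like the 10 are the 10 with the highest lower correlation of the libraries among genes seen in at least 10% of cells. Only the ratio calculation, with its intervals, was tested on simulated UMI sums. Thinning was checked for the number of UMIs kept per barcode. The members and lists were chosen with earlier results of these data known. Alternatives changed the filters, resolution, scaling, depth matching, thinning and the clusters included. Some genes that these rules select are not reported here.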

Additional observations from a re-analysis of the deposited data

Results flagged for a closer look

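Some genes stood lower in MMS fibroblast-like cells and higher in MMS cells of another class, with both counting intervals away from 0. That opposite direction is what drew attention to them, and the difference between classes was not tested, since each group is 1 library. The values below are the other class's log2 ratio minus that of fibroblast-like cells. Atf3 differed by 2.82 in endothelial-like and by 2.502 in macrophage or monocyte-like cells. Fos differed by 1.83 in endothelial-like cells. Fosb differed by 1.80 in macrophage or monocyte-like and by 1.40 in endothelial-like cells. Fosl2 differed by 1.54 in endothelial-like, by 0.75 in mural-like and by 0.43 in macrophage or monocyte-like cells. In bins of equal depth, endothelial-like Fos, Fosb and Atf3 lay at -0.13, -0.08 and -0.57, so their direction there was no longer opposite. Macrophage or monocyte-like Fosb lay at 0.61, Atf3 at 0.15 and Fosl2 at 0.11 in such bins. With cells limited to 5% mitochondrial UMIs they lay at 0.06, -0.46 and -0.24, so the opposite direction of Atf3 and Fosl2 was lost there.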

How the results depend on the processing

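No paired analysis was possible because each group is 1 library and no result comes from a test. The median log2 ratio of the 10 genes in fibroblast-like cells, -1.27 as reported, was below 0 under the alternatives run except in lining-like cells of equal depth. It was -1.23 with at least 2000 UMIs per cell, -1.22 with at most 5% mitochondrial UMIs, -1.20 with doublets kept, -1.36 at resolution 0.5, -1.36 scaled by the median of all genes, -1.19 with totals that leave out the 10 genes, mitochondrial genes, Prg4 and Fn1, -1.10 thinned to 2000 UMIs and -1.11 as a mean of per-cell shares. It was -1.37 with the tendon-marker cluster 7 and -1.24 without the cycling cluster 19, both chosen after seeing the data. At equal depth it was -0.76 with 1 gene 2-fold lower (6.78% of all genes). It was -0.23 with 0 genes (5.21% of all genes) in lining-like cells, -1.15 in sublining-like cells and -0.78 with 2 genes when these were weighted equally. It was -0.33 with 2 genes (3.87% of all genes) in cluster 0, -0.44 with 1 (6.75%) in cluster 8 and -0.97 with 2 of 9 (8.7%) in cluster 13. No share of all genes is given for the equal weighting or for lining-like cells of equal depth. At equal depth, also chosen after seeing the data, it was -1.04 in sublining-like cells and 0.026 with 0 genes in lining-like cells, where Fos was 0.083, Fosb 0.604, Egr1 0.180 and Ier2 0.145. Fosb turned to 0.015 in lining-like cells and Ier2 to 0.037 in cluster 0. The macrophage or monocyte-like median, -0.00 as reported, turned to 0.0019 with at least 2000 UMIs, 0.067 with at most 20% mitochondrial UMIs, 0.069 at resolution 0.5, 0.026 at resolution 2.0, 0.018 with the reduced totals and 0.090 at equal depth. The endothelial-like median was 0.038 as a mean of per-cell shares, and 1 gene there was 1.5-fold lower (10.5% of all genes). In mural-like cells 8 genes were 1.5-fold lower (14.4% of all genes). Only 1 of 9 was 2-fold lower there at equal depth (11.9% of all genes), where Atf3 was 0.28. Only 1 was 2-fold lower in mural-like cells thinned or as per-cell shares, and no share of all genes is given for these. The causes of these shifts were not tested.

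Shares of cells depend on depth by construction. Thinned to 5000 UMIs, at least 5 genes were seen in 81.7% of MMS and 95.8% of control fibroblast-like cells, 93.1% and 95.8% of macrophage or monocyte-like, 69.3% and 79.8% of endothelial-like, and 87.7% and 92.9% of mural-like cells. In fibroblast-like cells Fos was seen in 83.0% of MMS and 95.5% of control cells at 5000 UMIs and in 90.8% and 96.9% unthinned. Jun was seen in 77.6% and 96.6% at 5000 UMIs and in 92.6% and 98.0% unthinned, and Atf3 in 30.2% and 67.7%, and in 55.3% and 78.0%. Animals were pooled, so no value has a biological error.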
